A study of Mus musculus with 4 samples.

Results

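DNAM-1, the receptor encoded by Cd226, was read as an antibody tag on single immune cells of mouse skin after a chemical carcinogen, and cells with a high tag were compared with cells with a low tag. The cells came from 1 library of wild-type (WT) skin. They were kept when they had at least 500 genes, at least 1000 gene UMIs (unique molecular identifiers, each counting 1 captured RNA molecule), at most 10% mitochondrial UMIs and at least 100 counts of the CD45 tag, which marks leukocytes. Of 8527 WT barcodes, 7212 passed the RNA limits and 2174 of these were CD45-tag cells. Of those, 374 had at least 60 counts of the DNAM-1 tag and are called tag-high, 1117 had at most 25 and are called tag-low, and 683 lay between. The cells were chosen by their tag counts, so the tag values are a description and carry no test.

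DNAM-1 is an activating and adhesion receptor of NK cells and T cells. Its ligands are CD155 (Pvr) and CD112 (Nectin2). TIGIT shares both and CD96 shares CD155, and these receptors mostly restrain the same cells. In skin, the candidate carriers include CD8 T cells, dermal gamma-delta T cells that make IL-17, innate lymphoid cells and some myeloid cells.

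The study treated the shaved back of BALB/c mice, WT or Cd226-/-, once with 25 µg of the carcinogen DMBA and then with 5 µg of the tumour promoter TPA every week for 3 weeks. Skin cells of 3 mice were pooled for each genotype, stained with CD45.2 antibody and a barcoded streptavidin, separated by sorting into CD45+ and CD45- cells, and the 2 sorts were combined in equal parts. The barcoded DNAM-1 antibody was read from the same cells. The other 2 of the 4 libraries hold CD45+ and CD45- skin cells of naive mice, each a pool of WT and Cd226-/- animals, and enter only the check of the tag. With 1 library per genotype there is no replicate and no test. Every interval is an exact 95% interval that covers counting error only.

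The Cd226-/- library served as the background of the DNAM-1 tag. It held 3517 CD45-tag cells among 6682 that passed the RNA limits. Their tag median was 3 counts, the 99th percentile 18, and 2 cells (0.0569%, 0.00689 to 0.205) reached 60 counts. One of these was a macrophage-like cell with 70 counts, the other a cycling cell with 36016, far above every other cell of either library. In WT the CD45-tag cells had a median of 25 counts and quartiles of 17 and 44. The 5038 WT cells under 100 CD45 counts had a median of 16 and a maximum of 55, so none reached 60, and 95.5% were at or below 25. The tag-low range thus holds the level that cells without CD45 carried in the same library. In Cd226-/- the corresponding cells averaged 1.87 counts against 15.9 in WT, an 8.48-fold gap in background. A threshold of 60 in WT corresponds by that ratio to 7.07 counts in Cd226-/-, and 8.27% of Cd226-/- CD45-tag cells passed it, against 17.2% (15.6 to 18.9) of WT cells. The scaled share was 0.925% in Cd226-/- lymphocyte-like cells and 1.42% in dendritic-like cells. It was 21.4% in macrophage-like, 15.4% in Langerhans-like and 11.2% in monocyte-like cells, where the WT shares were 12.1%, 17.6% (10.2 to 27.4) and 2.07%. On that scale the WT share was below the Cd226-/- share in macrophage-like and monocyte-like cells, and in Langerhans-like cells the WT interval held the Cd226-/- share.

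**Figure D1:**
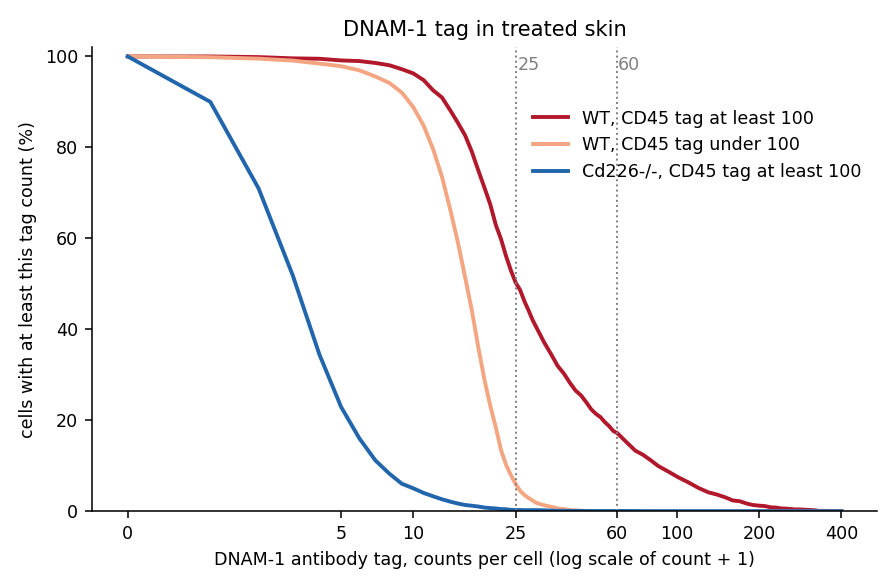
Share of cells (y axis, percent) with at least the DNAM-1 tag count on the x axis (log scale of count + 1), for WT CD45-tag cells, WT cells under 100 CD45 counts and Cd226-/- CD45-tag cells; dotted lines mark 25 and 60 counts. At 60 counts, 17.2% of WT CD45-tag cells remain, none of the WT cells under 100 CD45 counts, and 0.0569% of Cd226-/- CD45-tag cells.

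RNA of both defining genes was read more often in CD45-tag cells than in the other WT cells. Ptprc, which encodes CD45, gave a UMI in 83.5% of WT CD45-tag cells and in 1.11% of the other WT cells. Cd226 gave a UMI in 7.96% of CD45-tag cells and in 0.0595% of the others, at median depths of 6076 and 9431 UMIs. Cd226 RNA was also read in 2.76% of Cd226-/- CD45-tag cells. The assay reads the 3′ end of transcripts and the labels do not name the deleted part of the gene, so Cd226 RNA does not check the knockout label; the DNAM-1 tag does. The threshold cuts a continuous range: 52 cells had 60 to 65 counts and 52 had 54 to 59, and 36 cells stood at 25 counts against 54 at 26. Cells with more CD45 tag and more UMIs had more DNAM-1 tag (Spearman 0.48 and 0.22 across the 2174 cells, which share 1 library and 1 staining). Tag-high cells had a median of 9194 UMIs and 1555 CD45 counts, tag-low cells 5542 and 531, and the part of these gaps in the results below was not tested.

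Which cells carried the protein was read by grouping the CD45-tag cells of both treated libraries by their RNA with Cd226 left out, which gave 25 clusters, and by naming clusters from marker genes. In WT the tag medians were highest in a mixed cluster of dividing cells, in NK-like cells and in CD8 T-like cells. NK-like cells, the innate killer lymphocytes, had a median of 84 counts (quartiles 46.25 and 108.5) and 26 of 40 were tag-high (65%, 48.3 to 79.4). CD8 T-like cells had a median of 53.5 (35 and 77) and 54 of 126 were tag-high (42.9%, 34.1 to 52.0). Gamma-delta T-like cells had a median of 39 (21 and 64) and 53 of 183 were tag-high (29.0%, 22.5 to 36.1). The type 2 lymphocyte-like cells, which lead with Il13 and Calca, had a median of 35 and 7 of 62 were tag-high (11.3%, 4.66 to 21.9). Together these 411 lymphocyte-like cells had 140 tag-high and 93 tag-low cells (34.1% tag-high, 29.5 to 38.9). The intervals of NK-like and CD8 T-like cells overlap, and so do those of CD8 T-like and gamma-delta T-like cells.

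Among the myeloid classes, dendritic-like cells stood highest, with a median of 35 counts (22 and 67.75) and 25 of 90 tag-high (27.8%, 18.9 to 38.2). Langerhans-like cells, the dendritic cells of the epidermis, were tag-high in 17.6% of 85 cells, macrophage-like cells in 12.1% of 438 and mature dendritic-like cells in 10.7% of 140. Their medians were 23, 23 and 20 counts. Monocyte-like cells (2.07% of 338) and neutrophil-like cells (1.89% of 159) had the lowest tag-high shares, with medians of 19 and 23 counts. The medians of all these classes except dendritic-like cells were close to the 16 of cells without CD45 tag. Of 19 mast or basophil-like cells 2 were tag-high. In Cd226-/- every class had a median of 2 to 4 counts.

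**Figure D2:**
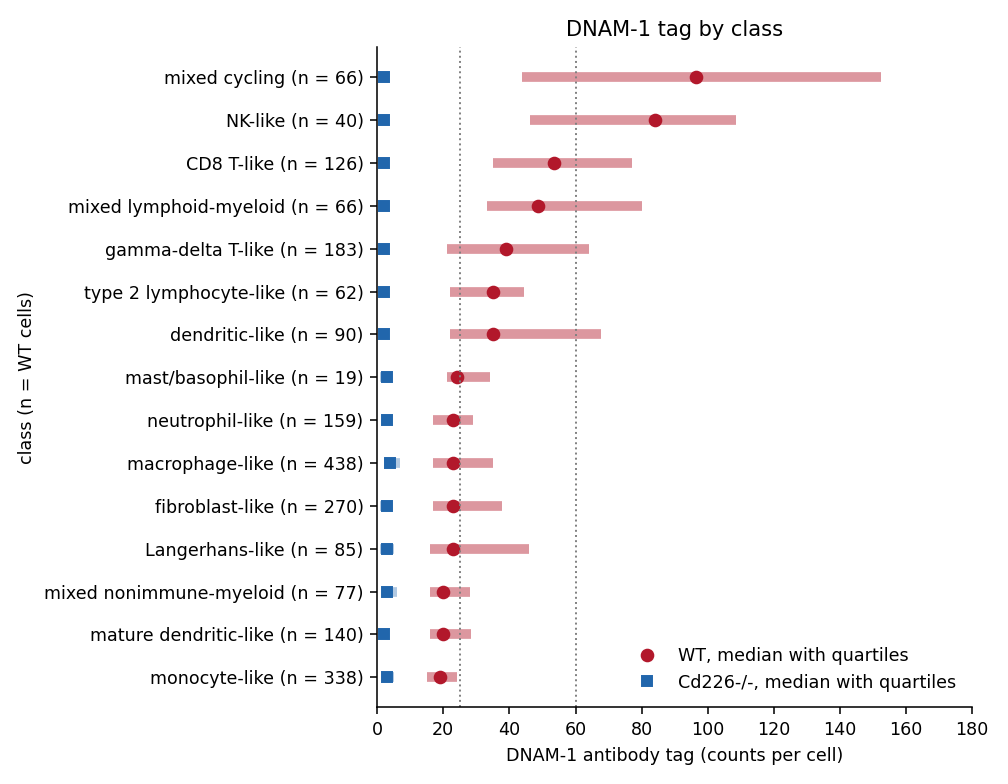
DNAM-1 tag counts per cell (x axis) in the 15 classes with at least 19 WT cells (y axis); points are medians and bars the quartiles, in WT and in Cd226-/-, with dotted lines at 25 and 60 counts. Mixed cycling, NK-like and CD8 T-like cells have the highest WT medians (96.5, 84 and 53.5 counts), and all Cd226-/- medians lie between 2 and 4.

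Some clusters that hold RNA of more than 1 cell type were also rich in tag. Mixed clusters of nonimmune and myeloid RNA were not, with a median of 20 counts and 4 of 77 WT cells tag-high (5.19%). The mixed cycling cluster had the highest median of all, 96.5 counts, with 43 of 66 cells tag-high (65.2%). A mixed cluster of lymphoid and myeloid RNA, led by Tnfrsf4, Ctla4 and Trac, had a median of 48.5 and 29 of 66 tag-high (43.9%). Fibroblast-like cells with CD45 tag were tag-high in 13.7% of 270, and 43.7% of them were called doublets by Scrublet, against 6.12% of all WT CD45-tag cells. A UMI of a T-cell receptor or CD3 gene was in 54.1% of their 37 tag-high cells and in 11.9% of their 151 tag-low cells. Between these sets 5.17% of 5803 genes were called 2-fold apart (2.41% higher, 2.76% lower in tag-high cells), and genes of T cells led the higher ones, Cd3d by 19.1-fold (10.3 to 38.8) and Il17a by 27.2-fold (20.6 to 36.5). Doublets were kept. To see how far such mixtures carry the tag, the shares were also taken over cells without T-cell UMIs in the classes that are not lymphocytes, and over cells with at most 0.3% of UMIs from myeloid markers in the lymphocyte classes. Without T-cell UMIs, 25.0% of 84 dendritic-like cells (16.2 to 35.6) and 10.0% of 420 macrophage-like cells (7.30 to 13.3) were tag-high, while mature dendritic-like cells were at 5.88% (10.7% before), Langerhans-like at 12.3% and fibroblast-like at 7.46% (13.7% before). With little myeloid RNA, 30.7% of 361 lymphocyte-like cells (26 to 35.8), 40.5% of CD8 T-like and 28.5% of gamma-delta T-like cells were tag-high, and type 2 lymphocyte-like cells were at 7.55%. The NK-like class lost 20 of its 40 cells by this limit, 15 of them tag-high, and 55.0% of the rest (31.5 to 76.9) were tag-high.

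The makeup of the tag-high cells followed from these shares. Lymphocyte-like cells were 37.4% of tag-high cells and 8.33% of tag-low cells. CD8 T-like cells gave 54, gamma-delta T-like and macrophage-like cells 53 each, and the mixed cycling cluster 43. Monocyte-like cells were 1.87% of tag-high and 24.1% of tag-low cells, and neutrophil-like cells 0.802% and 8.59%.

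The gamma-delta T-like class held 2 clusters that differed in tag. In the cluster led by Il22, Il17a and Il17f, cytokines of type 17 immunity, 119 WT cells had a median of 52 counts (quartiles 38 and 67.5), with 49 tag-high and 10 tag-low. In the cluster led by Cd7, Trdc, Trat1 and Cd163l1, 64 WT cells had a median of 18.5 (14 and 25), with 4 tag-high and 49 tag-low. The quartiles of the 2 clusters do not overlap. The second cluster carried more CD45 tag (median 1287 against 693), so the order of the DNAM-1 tag was opposite to that of the CD45 tag. In Cd226-/- both clusters had a median of 2 counts. Cd226 RNA stood at 35.4 CPM (counts of the gene scaled to all gene UMIs of the cells; 20.2 to 57.5) in the first and 38.6 (17.7 to 73.3) in the second. That is 16 UMIs in 16 of 119 cells (13.4%, 7.88 to 20.9) and 9 UMIs in 4 of 64 cells (6.25%, 1.73 to 15.2), and both pairs of intervals overlap.

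CD45-tag cells without T-cell UMIs were then read by marker gene, mostly of myeloid cells, which does not rest on the clusters. These gates take cells of any class, so not all cells in them are myeloid. Those with Xcr1 or Clec9a below include 2 fibroblast-like, 2 endothelial-like and 1 type 2 lymphocyte-like cell. Xcr1 and Clec9a mark type 1 conventional dendritic cells, which present antigen to CD8 T cells. In WT, 37 cells had a UMI of either gene, with a tag median of 73 counts (quartiles 39 and 115), and 21 were tag-high (56.8%, 39.5 to 72.9). Of these 37, 20 were in the dendritic-like cluster (11 tag-high) and 6 in the mixed cycling cluster (all 6 tag-high). With at least 2 UMIs, 9 of 12 Xcr1 cells and 13 of 17 Clec9a cells were tag-high. In Cd226-/- the 90 such cells had a median of 2 counts and none reached 60 (the interval allows up to 4.02%), and 4.44% passed the scaled threshold. Cells with Cd209a, a gene of monocyte-derived and type 2 dendritic cells, and neither Xcr1 nor Clec9a were tag-high in 51 of 242 (21.1%, 16.1 to 26.8). Cells with Siglech, a gene of plasmacytoid dendritic cells, had a median of 19 counts and 2 of 34 tag-high (5.88%, 0.720 to 19.7). Cells with C1qa, a complement gene of macrophages, were tag-high in 12.4% of 595, and cells with Cd163, a scavenger receptor, in 17.4% of 311. Cells with Ear2, a ribonuclease gene of the eosinophil-associated family, were tag-high in 37 of 117 (31.6%, 23.3 to 40.9). Cells with Mcpt4 or Cpa3, proteases of mast cells, had 0 tag-high cells among 17 and 22, where the intervals allow up to 19.5% and 15.4%. On the scaled threshold, Cd226-/- cells with the same genes passed in 15.8% (Cd209a), 22.4% (Siglech), 19.5% (C1qa), 24.0% (Cd163) and 14.3% (Ear2). Of these gates, the WT share was above the scaled Cd226-/- share for Cd209a and Ear2 and below it for Siglech, C1qa and Cd163.

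**Figure D3:**
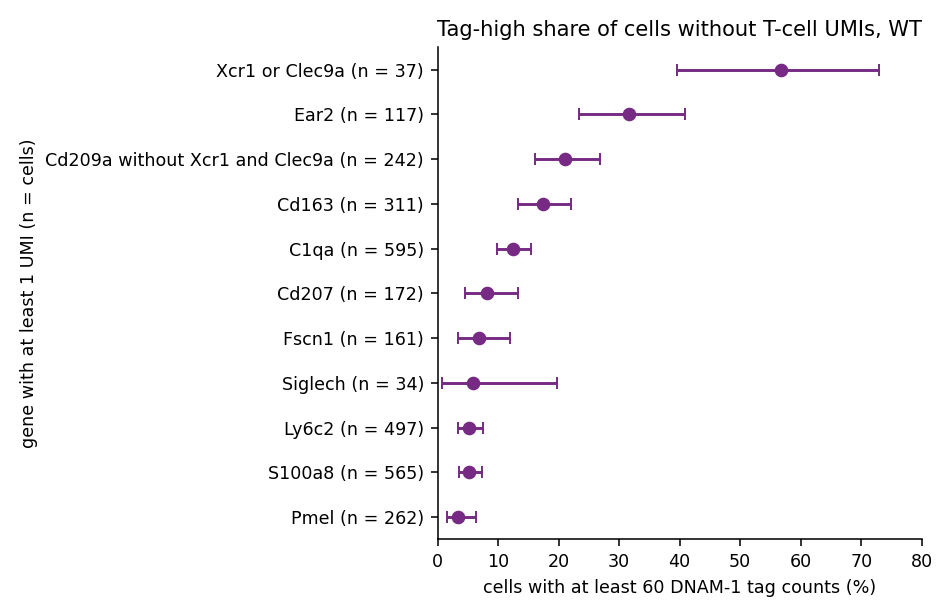
Share of WT cells with at least 60 DNAM-1 counts (x axis, percent, exact 95% interval) among cells with at least 1 UMI of the named gene and no T-cell UMI (y axis, with the number of cells). Cells with Xcr1 or Clec9a stand highest at 56.8% and cells with Pmel, a melanocyte gene, lowest of those plotted at 3.44%.

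Cd226 RNA was not used to choose the cells, and it went with the tag. Over all WT CD45-tag cells, the share with a Cd226 UMI was 0.531% at 0 to 15 counts, 1.22% at 16 to 25, 8.20% at 26 to 59, 21.5% at 60 to 99 and 37.0% at 100 and over. In tag-high cells Cd226 stood at 36.3 CPM (30.6 to 42.8) and in tag-low cells at 1.59 (0.821 to 2.77), a ratio of 22.9 (12.7 to 45.3). Thinned to 1000 UMIs a cell, the shares were 2.94% and 0.358%. With the tag-low profile weighted to the clusters of the tag-high cells (matched clusters) the ratio was 3.47. Clusters with too few tag-low cells were left out of this weighting. That dropped the NK-like cluster, with 2 tag-low cells, and kept 348 of the 374 tag-high cells. In lymphocyte-like cells, 30.7% of tag-high and 5.38% of tag-low cells had a Cd226 UMI, at 61.4 and 22.2 CPM, a ratio of 2.76 (1.19 to 7.85). Thinned, those shares were 4.29% and 4.30%. With matched clusters, which kept 114 of the 140 tag-high cells and no NK-like cells, the ratio was 1.19. In the CD8 T-like cluster alone, with 54 tag-high and 14 tag-low cells, it was 0.62 (0.228 to 2.11), an interval that holds 1. In dendritic-like cells 7 of 25 tag-high and 1 of 31 tag-low cells had a Cd226 UMI. Across the 21 clusters with enough cells in both libraries, the WT median tag went with WT Cd226 RNA (Spearman 0.617) and with Cd226 RNA of the Cd226-/- library (0.699), and in the opposite order with the Cd226-/- median tag (-0.474). It also went with the WT CD45 tag (0.422).

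**Figure D4:**
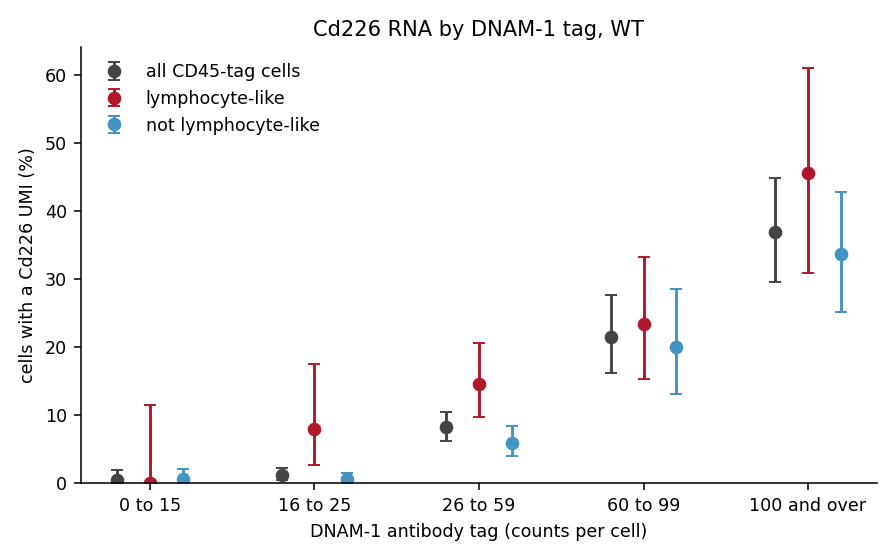
Share of WT cells with at least 1 Cd226 UMI (y axis, percent, exact 95% interval) by DNAM-1 tag count (x axis) in all CD45-tag cells, in lymphocyte-like cells and in the rest. Over all cells the share goes from 0.531% in the lowest bin to 37.0% in the highest.

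Genes were compared between tag-high and tag-low cells by UMIs summed over each set and scaled to the set's total (CPM), among genes with at least 50 UMIs in both sets together. A gene was called when the sets differed at least 2-fold. Over all WT CD45-tag cells 12.6% of 10108 genes were called, 495 higher (4.9%) and 774 lower (7.66%) in tag-high cells. Of the gene lists, all 10 T-cell genes, 12 of 14 checkpoint and costimulation genes, 17 of 20 cell cycle genes, 6 of 11 type 17 genes and 4 of 6 type 1 dendritic genes were at least 2-fold higher. Tbx21, the T-bet regulator of type 1 immunity, stood at 23.7 CPM in tag-high and 0.265 in tag-low cells, a ratio of 89.6 (24.1 to 750). Cd8a and Cd8b1, the CD8 chains, were 34.2-fold (20.4 to 61.9) and 26.4-fold (17.7 to 40.9) higher. Ncr1, the NK receptor NKp46, was 37.2-fold, Gzma (granzyme A) 18.0-fold and Ifng (interferon gamma) 18.8-fold higher. Il17a and Il17f were 14.4-fold and 15.1-fold higher, though with matched clusters Il17a had a ratio of 0.95, and Csf2, the cytokine GM-CSF, 30.7-fold. Xcr1 was 63.8-fold higher (17.0 to 538). Of 16 measured genes of cytotoxic and type 1 cells 14 were higher, with a median log2 ratio of 3.06, against 0.04 over all genes. Of 20 cell cycle genes all were higher (median 1.90), and this median was -0.080 with matched clusters.

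Of 7 measured mast cell genes 6 were lower in tag-high cells (median -3.60) and Kit was higher (1.41), and all 4 melanocyte genes were lower (median -3.75). Mcpt4 was 114-fold lower (48.6 to 351) and Cma1 58.9-fold lower. WT held 19 mast or basophil-like cells, 11 tag-low and 2 tag-high. When cells were ranked by DNAM-1 tag per CD45 tag, both genes turned, to ratios of 13.8 and 9.01. All 9 neutrophil genes were lower (median -2.73), S100a8 at 389 against 3414 CPM. Dct, a melanocyte gene with a UMI in 19.8% of tag-high and 19.2% of tag-low cells, was 15.6-fold lower. Krt15, a keratinocyte gene, had 0 UMIs in tag-high cells and was 30.4-fold lower with a floor of 3 counts there. Pvr and Nectin2, the ligands, were 0.699 and 0.525 times as high in tag-high cells, and Cd96 was 5.65-fold higher (3.64 to 9.01).

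Within lymphocyte-like cells, 140 tag-high cells were set against 93 tag-low cells, and 12.3% of 3157 genes were called, 215 higher (6.81%) and 174 lower (5.51%). Median depths were 5147 and 2710 UMIs and median CD45 counts 1274.5 and 819; their part in the result was not tested. With edgeR or DESeq2 size factors the median shifted by 0.18 or 0.17 on the log2 scale, and the share of called genes that were higher went from 55.3% to 70.5% or 70.0%. The 2 sets differ in makeup: CD8 T-like and NK-like cells were 54 and 26 of the tag-high cells and 14 and 2 of the tag-low cells. The gamma-delta cluster led by Cd7 gave 4 of the tag-high cells and 49 of the tag-low cells. Genes of cytotoxic and type 1 cells were higher in 11 of 14, with a median log2 ratio of 1.21 against 0.01 over all genes. Within the CD8 T-like cluster, between the 25% of cells with the most and the least tag, 6 of 8 were higher, with a median of 0.56. Ifng stood at 291 CPM in tag-high and 104 in tag-low cells, a ratio of 2.80 (1.89 to 4.30). Tbx21 was 7.99-fold (2.11 to 67.7), Ccl5 3.13-fold (2.59 to 3.81, but 0.85 by DNAM-1 tag per CD45 tag) and Gzma 1.81-fold (1.58 to 2.07) higher. Cd8a (3.04) and Cd8b1 (3.26) were both higher. Not all of the killing machinery followed: Prf1 (perforin) had a ratio of 0.369 (0.260 to 0.525), Nkg7 of 0.757 and Gzmb of 0.785. Within gamma-delta T-like cells, 7 of 11 cytotoxic and type 1 genes were lower in tag-high cells (median -0.74). The part of the unequal makeup in these ratios was not tested.

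NK receptors were split. Ncr1 (3.50, 1.53 to 9.87), Klrc1 (2.34) and Tyrobp, an adaptor also made by myeloid cells (4.07), were higher, while Klrd1 was lower (0.453, 0.375 to 0.549). Of the DNAM-1 family, Cd96 had a ratio of 0.497 (0.296 to 0.852), and Tigit had 2 UMIs in tag-high and 1 in tag-low cells, too few to compare. Of 13 measured genes of DNAM-1 signalling, 5 were higher and 8 lower, and the median was -0.18. Itgb2, the beta chain of the integrin LFA-1, which associates with DNAM-1, had a ratio of 1.83 (1.23 to 2.81). Foxo1, a transcription factor of resting T cells, had 0.485 (0.350 to 0.679). Among checkpoint genes Pdcd1 (PD-1) was higher (2.42, 1.59 to 3.82) and Havcr2 (TIM-3) lower (0.272, 0.194 to 0.383). Here too the part of the unequal makeup of the sets was not tested.

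The genes lowest in tag-high lymphocyte-like cells were those of the Cd7 cluster of gamma-delta T cells. Fermt2 was 20.7-fold lower (13.9 to 32.1), Klrb1b 17.2-fold, Cd7 6.70-fold (5.73 to 7.85) and Trat1 6.48-fold. Trdc, the constant segment of the delta chain, stood at 448 CPM in tag-high and 2055 in tag-low cells, a ratio of 0.218 (0.192 to 0.248). All 3 measured gamma-delta genes were lower, with a median of -2.20. Type 2 genes were lower as well, 4 of 4 with a median of -0.88, with Gata3 at a ratio of 0.413 (0.275 to 0.626) and Calca at 0.186. In the CD8 T-like cluster alone, Cd7 had a ratio of 1.05.

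Myeloid genes were also higher in tag-high lymphocyte-like cells: all 10 measured inflammatory myeloid genes (median 3.08), all 4 neutrophil genes (2.96), all 4 macrophage genes (2.75) and all 7 monocyte genes (2.05). Ccl3 was 60.2-fold, Tgfbi 61.9-fold, Apoe 8.77-fold (5.49 to 14.9) and Lyz2 6.63-fold (5.30 to 8.39) higher. By DNAM-1 tag per CD45 tag, Ccl3 and Lyz2 turned, to 0.23 and 0.83. Macrophage markers summed to 956 CPM in tag-high and 122 in tag-low cells, and MHC class II genes to 6308 and 1637; their part in the result was not tested over all of these cells. When cells were limited to 0.3% of myeloid UMIs, 111 tag-high and 86 tag-low cells remained, with macrophage markers at 109 and 97.4 CPM and median depths of 4594 and 2678 UMIs. There 11% of 2219 genes were called, 114 higher (5.14%) and 131 lower (5.9%), with a shift of 0.20 or 0.19 under the size factors. Lyz2, which the limit itself counts, as it does the macrophage markers, then had a ratio of 0.53. Genes outside the limit stayed higher. These were all 4 measured inflammatory myeloid genes (median 2.75) and the 2 measured MHC class II genes (median 2.09). MHC class II genes summed to 362 and 130 CPM. The part of remaining myeloid RNA in the ratios that follow was not tested. Ifng was higher by 3.88-fold (2.56 to 6.13), Tnf by 4.78-fold (2.42 to 10.8), Gzmc by 3.13-fold (2.40 to 4.14), and Ccl4, a chemokine of activated T and NK cells as well as macrophages, by 9.52-fold (6.81 to 13.7). Over all lymphocyte-like cells Ccl4 turned to 0.93 by DNAM-1 tag per CD45 tag, and Gzmc to 0.36 with the coarser clusters of resolution 0.6. Il17a and Il17f were 2.91-fold (2.71 to 3.13) and 3.02-fold (2.77 to 3.28) higher, and 9 of 10 type 17 genes were higher with a median of 1.31. Gzmb, which had been lower, was higher at 1.64 (1.37 to 1.97). Prf1 stayed lower at 0.365, and the 3 gamma-delta genes too, with a median of -1.84.

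The tag of single lymphocytes was also read by whether they held a gene's RNA. Of the 56 cells with a Tbx21 UMI, 66.1% were tag-high (52.2 to 78.2), against 29.0% of those without. Of 75 cells with Cd8b1, 45 were tag-high (48.0 to 71.2%), and of 23 with Ncr1, 15 were (42.7 to 83.6%). Of 92 cells with Ifng, 52.2% were tag-high (41.5 to 62.7) against 28.8% of those without. Cells rich in UMIs show more genes and more tag, so each cell was also thinned to 1000 UMIs. Then 10 of 16 cells with Tbx21, 24 of 45 with Cd8b1 and 22 of 44 with Ifng were tag-high, against 32.9%, 31.7% and 32.2% of those without. Thinned, 18 of 90 cells with Cd7 were tag-high against 38.0% of those without (31.4% and 35.7% unthinned). For Gata3 it was 6 of 38 against 35.9% (29.1% and 36.1% unthinned). Genes with lower summed ratios were mixed by this reading. Thinned, cells with Gzmb were tag-high in 46.25% against 31.1% (49.6% and 26.8% unthinned). For Nkg7 it was 36.9% against 31.9% (37.5% and 29.6%). Klrd1 gave 31.8% against 34.9% (39.4% and 28.8%) and Cd96 29.6% against 34.4% (36.9% and 33.3%). Prf1 gave 24.4% against 35.1% (33.7% and 34.2%).

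Within gamma-delta T-like cells, 53 tag-high and 59 tag-low cells gave calls in 23% of 1212 genes, 132 higher (10.9%) and 147 lower (12.1%), at median depths of 4331 and 2508 UMIs. The size factors shifted the median by 0.24 (edgeR) or 0.34 (DESeq2) on the log2 scale and took the share of called genes that were higher from 47.3% to 64.8% or 73.5%. Type 17 genes were higher, 8 of 9 with a median of 1.89 against 0.09 over all genes. Il17a stood at 20732 CPM in tag-high and 5556 in tag-low cells, a ratio of 3.73 (3.48 to 4.01), and Il17f at a ratio of 4.05 (3.73 to 4.41). Rora, a regulator of type 17 cells, was 7.77-fold (4.67 to 13.9), Il7r, the IL-7 receptor, 11.7-fold (6.02 to 26) and Ly6a (Sca-1) 11-fold (7.63 to 16.5) higher. Cd7 (10.3-fold), Trat1 (10.9-fold) and Klrb1b (19.6-fold) were lower. Gzmc, at 0 UMIs in tag-high cells, was 34.1-fold lower with the floor of 3 counts. Trdc had a ratio of 0.431 (0.377 to 0.493). Cd226 had 15 UMIs in tag-high and 0 in tag-low cells. Macrophage markers summed to 740 and 105 CPM, and with little myeloid RNA 26.5% of 1032 genes were called (12.3% higher, 14.1% lower), Il17a at 4.42 (4.11 to 4.76). Several of these genes also lead the 2 clusters. Within the Il17a cluster, 49 tag-high against 10 tag-low cells gave ratios of 0.72 for Il17a, 0.79 for Il17f, 0.56 for Il22 and 1.14 for Trdc, so the order of each turned.

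Dendritic-like cells were compared on fewer cells, 25 tag-high and 31 tag-low, and 10.8% of 1104 genes were called, 66 higher (5.98%) and 53 lower (4.8%). All 3 measured genes of type 1 dendritic cells, of 6 in the list, were higher, and Siglech was the 1 measured gene of 4 in the plasmacytoid list. Naaa, a lysosomal amidase gene, stood at 1363 CPM in tag-high and 205 in tag-low cells, a ratio of 6.65 (4.75 to 9.53). Xcr1 (16, 2.54 to 665) and Clec9a (5.26, 1.82 to 20.8) were higher on fewer than 50 UMIs each, and Wdfy4, needed for cross-presentation, by 4.86 (2.37 to 11.2). Siglech was at 0 UMIs in tag-high cells against 273 CPM, 20.6-fold lower with the floor of 3 counts. Tcf4, the regulator of plasmacytoid dendritic cells, was 6.95-fold lower (3.83 to 13.6). Of 7 measured MHC class II genes all were higher, with a median of 1.00 against -0.04 over all genes, H2-Eb1 at 2.96 (2.66 to 3.28). By DNAM-1 tag per CD45 tag H2-Aa turned, from 2.26 to 0.91. Retnla, a gene of alternatively activated myeloid cells, was 118-fold higher (32.4 to 981), with a UMI in 36% of tag-high and 6.45% of tag-low cells. Cd209a had a ratio of 0.230 (0.157 to 0.329). Tag-high cells of the class were deeper, with a median of 9652 against 5953 UMIs. T-cell markers summed to 66.4 and 0 CPM and macrophage markers to 2053 and 368 CPM. Without cells that held T-cell UMIs, 9.92% of 968 genes were called (5.06% higher, 4.86% lower), and Naaa was at 6.8 (4.84 to 9.80), Retnla at 152 and H2-Eb1 at 3. Macrophage markers still summed to 1924 and 368 CPM there, and the part of such RNA in the Retnla ratio was not tested.

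In macrophage-like cells 2.98% of 4427 genes were called, 58 higher (1.31%) and 74 lower (1.67%), in 53 tag-high against 250 tag-low cells. Ear2 stood at 139 CPM in tag-high and 2.51 in tag-low cells, a ratio of 55.4 (18.3 to 274), and was read in 32.1% and 1.20% of the cells. Cd209a was 2.75-fold (2.32 to 3.27) and Fn1, fibronectin, 3.44-fold (2.85 to 4.17) higher. All 10 macrophage markers were lower, with a median of -0.52 against 0.01 over all genes, Cd163 at 0.427 (0.377 to 0.482) and C1qa at 0.730 (0.695 to 0.767). All 8 measured MHC class II genes were higher (median 0.32) and all 6 Fc receptor genes lower (median -0.41). Arg1 was at 0 UMIs in tag-high cells, 13.1-fold lower with the floor of 3 counts. The sets differ in makeup here too: the cluster that Arg1 helps to define held 2 tag-high and 41 tag-low cells, the cluster led by Ccl8 and Folr2 38 and 116, and the cluster led by Lyz1 13 and 93. Tag-high cells had a median of 10924 UMIs against 4318.5 and 1718 CD45 counts against 463, T-cell markers summed to 123 against 2.51 CPM, and 18.9% against 1.20% of the cells held a T-cell UMI. Among cells without T-cell UMIs, 3.76% of 4101 genes were called (1.24% higher, 2.51% lower), and 9 of 10 macrophage markers were lower. Ear2 was at 52.3 (17.0 to 261) there, Cd209a at 2.83, Cd163 at 0.472 and Fn1 at 3.1. Xcr1 and Clec9a had 0 UMIs in the tag-low cells without T-cell UMIs. With the floor of 3 counts there they were 6.32-fold and 9.02-fold higher, on fewer than 50 UMIs each.

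Over all cells that were not lymphocyte-like and held no T-cell UMI, 119 tag-high and 960 tag-low, 9.21% of 9018 genes were called (2.82% higher, 6.4% lower). Type 1 dendritic genes were higher in 4 of 5, with a median log2 ratio of 2.21 against 0.04 over all genes. Xcr1 was 98.9-fold (25.7 to 845) and Clec9a 37.1-fold (15.8 to 106) higher. Ear2 was 17.2-fold higher (13 to 23), and all 10 macrophage markers were higher here (median 0.57), opposite to their order within macrophage-like cells. All 7 mast cell genes were lower. Mcpt4 and Cpa3, at 0 UMIs in tag-high cells, were 73-fold and 34.2-fold lower with the floor of 3 counts. Of 10 monocyte genes 8 were lower (median -1.16). Median depths were 10563 and 5686 UMIs and median CD45 counts 1475 and 508.5, and their part in these differences was not tested.

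The Cd226-/- library can show which genes go with a high tag count where the receptor is absent. Within each class the 25% of cells with the most DNAM-1 tag were set against the 25% with the least, in each library. In lymphocyte-like cells, 11.2% of genes were called in WT (95 against 19 median counts) and 4.18% in Cd226-/- (4 against 0 counts, with ties broken at random). Median depths were 5459 and 2720.5 UMIs in WT and 4059.5 and 3599.5 in Cd226-/-. Cd226 had a ratio of 3.12 (1.33 to 8.93) in WT and 0.524 (0.153 to 1.65) in Cd226-/-. Tbx21 had 6.50 and 0.868, Cd8a 3.26 and 0.823, and Gzmc 2.63 and 0.773. Fermt2 had 0.0575 and 0.655, Klrb1b 0.0647 and 0.913, and Trdc 0.168 and 0.738. For each of these genes the WT ratio lay farther from 1 than the Cd226-/- ratio. Other genes were higher with the tag in both libraries: Ccl5 had 2.75 (2.26 to 3.36) and 2.44 (2.05 to 2.91), Ifng 1.71 (1.19 to 2.52) and 2.90 (1.95 to 4.43), Apoe 8.57 and 4.95, and Lyz2 7.77 and 4.39. All 4 measured macrophage markers were higher in both, with medians of 2.89 and 2.34. A higher tag count thus went with Ifng, Ccl5 and myeloid RNA in cells without the receptor too. The difference between the libraries was not tested.

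**Figure D5:**
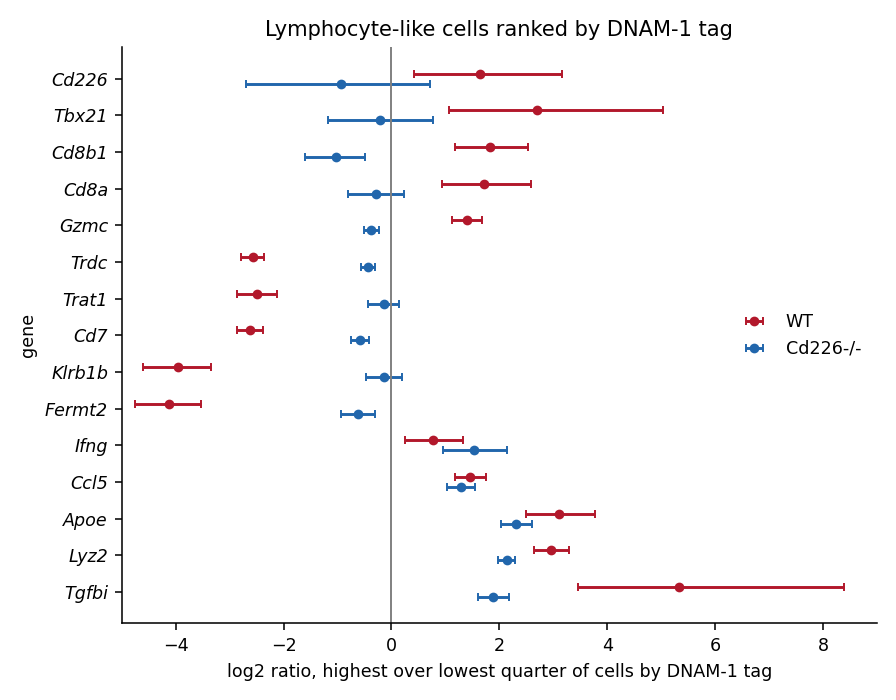
Log2 ratio of CPM (x axis, exact 95% interval) between the 25% of lymphocyte-like cells with the most and the 25% with the least DNAM-1 tag, for 15 genes (y axis), in WT and in Cd226-/-. Tbx21, Cd8a and Cd8b1 lie above 0 in WT and below 0 in Cd226-/-, and Ifng, Ccl5, Apoe, Lyz2 and Tgfbi lie above 0 in both libraries.

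In macrophage-like cells the same ranking called 3.13% of genes in WT and 1.94% in Cd226-/-. Ear2 had a ratio of 44.7 (7.82 to 1783) in WT and 0.629 (0.451 to 0.880) in Cd226-/-, and Mfge8 12.2 and 0.187. All 10 macrophage markers were lower with the tag in WT (median -0.46), and 9 of 10 were higher in Cd226-/- (median 0.23). In the gamma-delta T-like class 21.9% of genes were called in WT and 4.46% in Cd226-/-, in neutrophil-like cells 13.6% and 6.07%, in mature dendritic-like cells 11.9% and 3.17%, and in monocyte-like cells 1.38% and 0.609%. Within the CD8 T-like cluster of WT, 6.22% were called, and Cd226 had a ratio of 1.11 (0.447 to 2.99). In every one of these classes a larger share of genes was called in WT than in Cd226-/- where both were ranked. The WT sets held fewer cells, and a 2-fold call takes no account of counting error. Median depths also lay farther apart in WT. They were 7908 and 3941 UMIs in macrophage-like cells (8051 and 5388 in Cd226-/-) and 4536 and 2676 in neutrophil-like cells (2922 and 2866). The part of these gaps in the shares was not tested.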

How the data were processed

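Single-cell RNA and 2 antibody tags (CD45, DNAM-1) were measured with 10x 3′ chemistry in 4 libraries. The authors deposited 1 matrix a library with unnormalized UMI counts of genes and tags for each cell barcode, made with Cell Ranger 3.1.0 and mm10, per the submitters' processing notes. WT and Cd226-/- hold 72606822 and 71245703 gene UMIs. 21 barcodes were shared between the 2 libraries, 1 among CD45-tag cells. CD45-tag cells of both libraries (at least 50 counts) were clustered without Cd226 in scanpy 1.11.5 (2000 variable genes, 30 components, 15 neighbours, Leiden resolution 1.0). Classes were named from marker lists. Limits for mixed clusters were set after the clusters were seen. Doublets were kept. Limits on myeloid RNA and T-cell UMIs, and the marker-gene gates, were added after seeing the data. The cells, gene lists and comparisons were chosen with earlier results of these data known. Ratios are of summed UMIs as a share of the set's total (CPM) with exact conditional binomial intervals, shares with Clopper-Pearson intervals; all cover counting error only. A gene at 0 was set to a floor of 3 counts over the set, so its ratio is an estimate and not a bound. Named genes are the 12 highest and 8 lowest per comparison by the interval bound nearest 1, at least 1.5-fold also without the richest cell, plus list members; genes of mitochondria, ribosomes, hemoglobin, receptor variable segments and sex chromosomes, and unnamed models, were not named, and 1 other gene is not reported here. Sets compared within a class held at least 30 cells (20 for dendritic-like cells, added after seeing the data); alternatives needed 10 cells. Ratios and intervals were tested on counts simulated with counting error alone, which does not cover variation between cells. edgeR 4.0.16 and DESeq2 1.42.0 gave size factors only.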

Additional observations from a re-analysis of the deposited data

Results flagged for a closer look

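In the naive CD45- library, which enters no comparison of cells, 96.8% of the 11067 cells under 100 CD45 counts had at least 60 DNAM-1 counts (median 106). In the naive CD45+ library 5 of 3332 CD45-tag cells reached 60 (median 12). A signal outside the main measurement, above the level of the treated libraries, is what marked it for a second look. A threshold in counts therefore cannot be carried from one library to another.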

How the results depend on the processing

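No paired analysis was possible because each genotype has 1 library and the comparison lies within it. Of 2163 values of 136 gene ratios under the alternatives, 2104 stayed on the same side of 1, and 42 of the other 59 belonged to genes at least 2-fold apart in the main comparison. Ratios in an alternative needed at least 20 UMIs.

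With tag-high at 100 or at 40 counts, 7.59% or 28.2% of WT cells were tag-high, 11.2% or 57.2% of lymphocyte-like, 42.5% or 82.5% of NK-like, 15.9% or 66.7% of CD8 T-like, 3.83% or 49.7% of gamma-delta T-like, 12.2% or 45.6% of dendritic-like and 6.39% or 20.1% of macrophage-like cells, and 5.62% of monocyte-like cells at 40. At 100 counts, 248 lymphocyte-like and 201 macrophage-like genes differed 2-fold (389 and 132 at 60). With tag-low at 15 counts, S100a8 turned to 1.11 in macrophage-like cells.

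With the DNAM-1 tag taken per CD45 tag, over all cells Cd226 was at 11.7 and mast genes turned (Mcpt4 13.8, Cma1 9.01, Tpsb2 31.1, Tpsab1 4.62). In lymphocyte-like cells 212 genes differed 2-fold, and Ccl3 (0.23), Pf4 (0.89), Ccl4 (0.93), Ccl9 (0.74), Ccl2 (0.76), Lyz2 (0.83), Cxcl2 (0.81) and Ccl5 (0.85) turned. So did Mfge8 (0.071) and Acod1 (0.24) in macrophage-like cells, and Ccl7 (0.085), Apoe (0.22) and H2-Aa (0.91) in dendritic-like cells, where 48 genes differed 2-fold (119 in the main comparison). The cause was not tested.

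Without a filter on low counts, 4378 genes differed 2-fold over all cells, 4995 in lymphocyte-like, 4342 in gamma-delta T-like, 2731 in macrophage-like and 3916 in dendritic-like cells; with at least 200 UMIs, 556, 76, 54, 26 and 18 (main 1269, 389, 279, 132, 119). Without the filter the monocyte list of dendritic-like cells turned to a median of 0.44.

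Within the single cluster with most tag-high cells, 131 lymphocyte-like, 73 gamma-delta T-like and 207 macrophage-like genes differed 2-fold. There, in lymphocyte-like cells, Cd226 (0.62, on 14 tag-low cells, with 1 inside its interval), Tgfbi (0.99, at the floor), Nudt4 (3.85) and Cd7 (1.05) turned. In gamma-delta T-like cells Il17a (0.72), Il17f (0.79), Il22 (0.56), Trdc (1.14), Tcrg-C1 (2.38), Blk (0.72) and the medians of type 17 (-0.35) and gamma-delta genes (0.72) did. In macrophage-like cells Cxcl3 (4.27), Slpi (16.3) and S100a8 (1.36) did. At Leiden resolution 0.6 Gzmc turned to 0.36 in lymphocyte-like cells. With WT clustered alone, 17.1% of macrophage-like cells were tag-high, 216 genes differed 2-fold, and Cxcl3 (7.2), Slpi (15.6) and S100a8 (1.24) turned.

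The following were chosen after seeing the data. At 0.3% myeloid UMIs, 245 lymphocyte-like genes differed 2-fold and Lyz2 was at 0.53. Without T-cell UMIs Ctla2a turned to 0.18 in macrophage-like cells. With matched clusters 625 genes differed 2-fold over all cells and 182 in gamma-delta T-like cells. Cd226 was then at 3.47 over all cells and 1.19 in lymphocyte-like cells, with the NK-like cluster left out of both. Over all cells Il17a (0.95), Mki67 (0.95) and the cell cycle median (-0.080) turned, as did Il17a (0.72), Il17f (0.79), Il22 (0.56), Blk (0.72) and the type 17 median (-0.47) in gamma-delta T-like cells. Without fibroblast-like and mixed clusters 732 genes differed 2-fold over all cells and 15.4% of cells were tag-high. Scaled to the WT background, 8.27% of Cd226-/- cells passed the threshold.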
